A study of Mus musculus with 12 samples.

Results

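The X-linked genes *Atp6ap2*, *Lamp2* and *Atp6ap1*, which serve the acid compartments of the cell, were followed by allele. A site was a single-base variant covered by at least 20 reads, and the members were the sites whose gene column named 1 of the 3 genes. They were 88 of 5932 such sites and 3 of 399 genes. *Atp6ap2* had 29 sites, *Lamp2* 41 and *Atp6ap1* 18, of which 8, 22 and 10 were listed in all 12 libraries.

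The V-ATPase is the rotary proton pump that acidifies lysosomes, endosomes and secretory vesicles. Atp6ap1 (Ac45) and Atp6ap2 (the prorenin receptor) are accessory subunits in the membrane part of that pump, needed for its assembly and sorting. Lamp2 is a heavily glycosylated protein of the lysosomal membrane that takes part in autophagy and in the fusion of autophagosomes with lysosomes, and its transcripts end in alternative last exons. In female cells 1 X chromosome is silenced, and reads from the allele that a cell had silenced are a sign that this copy is transcribed again.

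The libraries were made from poly(A) RNA. Their source was either fibroblasts from mouse embryos (MEF) or cells that had been reprogrammed with SeVdp(fKOSMaB), a Sendai virus vector. The fibroblast libraries MEF1 and MEF2 were taken at day 0 with no vector and no agent. LowK was reprogrammed with the vector and without Shield1 and was sampled at days 35, 52 and 56. MidK1 (days 35, 52 and 56) and MidK2 (days 18, 22, 29 and 36) carried the same vector and received 30 nM Shield1, a small molecule that keeps proteins with a destabilising domain from being degraded. Each course and day is 1 library, so a test between 2 libraries compares those libraries and not the conditions. The labels leave unstated the strains, the sex, any feeder cells, the parental origin of each X chromosome and whether the MEF libraries came from separate cultures. In bulk RNA, a rise in some cells and a smaller rise in every cell cannot be told apart.

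Libraries had 1507 to 3871 sites with 138579 to 279031 reads over them, and 50 to 69 member sites with 2270 to 7024 reads. The tables form 2 sets. The lowest listed variant share was 10% where MEF1, LowK and MidK1 were tabulated and 5% where MEF2 and MidK2 were. MEF1 therefore served as the control of LowK and MidK1, and MEF2 as that of MidK2. Of 6 fibroblast marker genes, 6 had a site in MEF1 and 4 in MEF2, and they took 24% and 23.1% of the reads at sites. In reprogrammed libraries that share was 0.404 to 1.93%. A list of 6 pluripotent or germline genes took 0.413 and 0.535% in MEF and 0.909 to 2.03% after reprogramming. Of those 6, 4 (Nr0b1, Rhox6, Rhox9 and Fthl17a) had no site in any library. The share rested on Tfe3 alone in MEF and on Rhox5 and Tfe3 after reprogramming. Tfe3 is also counted below among the genes of lysosomal gene control, so this share is a weak marker of cell state.

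The 3 genes lie far apart on the X chromosome (build mm10, gene models of GENCODE M21). *Atp6ap2* (ENSMUSG00000031007.2) is at chrX:12587801-12617049 on the plus strand with 9 exons. *Lamp2* (ENSMUSG00000016534.15) is at chrX:38401357-38456454 on the minus strand with 9 exons in a transcript. *Atp6ap1* (ENSMUSG00000019087.13) is at chrX:74297097-74304721 on the plus strand with 10 exons. The middles of the pump accessory genes are 61.7 Mb apart, with *Lamp2* between them, 25.8 Mb from *Atp6ap2* and 35.9 Mb from *Atp6ap1*. By annotation 13 sites of *Atp6ap2*, 13 of *Lamp2* and 6 of *Atp6ap1* are coding, 14, 23 and 12 lie in the 3' UTR, and the other *Atp6ap2* and *Lamp2* sites lie in the 5' UTR. At 88 of 88 sites the transcript holds the listed reference base.

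The sequences of 6 sites are shown because they decide how the shares below are read: 4 with very few reference reads in MEF, and 2 in *Atp6ap1* with an uncertain readout. They come from the GENCODE M21 transcripts, on the strand of the gene. The capital marks the variant position, and the change gives the reference base, its place counted from 1 at the first base shown, and the variant base.
Atp6ap2 exon 8, coding, chrX:12608901-12608929, site 12608915, T15A: ttcgacacatccctTgtgaggaagtcaag
Atp6ap2 exon 8, coding, chrX:12608929-12608954, site 12608943, G15A: ggaccatccttgagGcaaaacaagag
Lamp2 exon 9 of Lamp2-202, 3' UTR, chrX:38419718-38419746 minus strand, site 38419732, G15A: tgtatttttgttttGttttactggttttg
Atp6ap1 exon 10, 3' UTR, chrX:74304538-74304566, site 74304552, T15C: gaaggaagaaaccaTcacgaggattggtg
Atp6ap1 exon 10, 3' UTR, chrX:74304456-74304484, site 74304470, G15T: agcttagctgttatGttttttggggggga
Atp6ap1 exon 10, 3' UTR, chrX:74304463-74304491, site 74304477, G15T: ctgttatgttttttGggggggaggggtga

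The reference share is the percentage of covering reads without the variant base. At site 12608915 of *Atp6ap2* it was 3.39% of 59 reads in MEF1 and 0 of 74 in MEF2, which allows a share of up to 4.05% (3 reads, counting error only). It was 1.06%, 5.05% and 10.6% at the LowK days 35, 52 and 56, and 5.06%, 14.3% and 28.6% at the same days of MidK1. In MidK2 it was 5.41%, 9.57%, 20% and 11.5% at days 18, 22, 29 and 36. Every reprogrammed library but LowK day 35 was above both MEF libraries at this site. At site 38419732 of *Lamp2* the share was 4.35% in MEF1 and 1.69% in MEF2, and 4.92%, 8.51% and 4.88% in LowK. There it was 16.9%, 46.2% and 44.7% in MidK1 and 8.70%, 19.3%, 19.6% and 18.6% in MidK2. Each reprogrammed library was thus above both MEF libraries at this site, LowK days 35 and 56 only just. Site 74304552 of *Atp6ap1* stood at 5.05% in MEF1 and 0 of 116 reads in MEF2 (up to 2.59% allowed), at 2.97 to 5.43% in LowK and MidK1, and at 3.25%, 12.1%, 13.0% and 1.91% in MidK2. Its highest values were thus at MidK2 days 22 and 29.

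The sites of *Atp6ap1* in the run of t and g bases behaved in another way. At 74304470 the reference share was 71.7 to 86.8% in all 12 libraries, and at 74304477 it was 16.5 to 37.5%. At 74304470 the tables also list a deletion of the same base, carried by 67.3 to 85.1% of reads. Reads with the deletion lack the variant base and so count as reference there. At 74304477 a deletion was listed in 5 libraries, at 5.35 to 14.3% of reads. Outside this run, a deletion of the base at site 74304116 was listed in 4 libraries, at 5.17 to 12.2% of reads. A site at 74304640 (7 libraries) had 81.1 to 92.6% reference.

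*Lamp2* has a similar group. At 5 sites of exon 5, within 16 bases of coding sequence, the reference share was 41.0 to 88.9% in every library that listed them, fibroblasts included. The stretch is a row of GTTGGA repeats, shown here on the plus strand of chrX:38431935-38431984, opposite to the gene, first with the reference and then with the variant bases in capitals.
Lamp2 exon 5, reference: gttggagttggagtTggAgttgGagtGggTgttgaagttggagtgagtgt
Lamp2 exon 5, variant: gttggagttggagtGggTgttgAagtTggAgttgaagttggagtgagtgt
Each of the 5 variant bases equals the reference base 12 positions further along the plus strand, and the 11 bases between them also equal those 12 positions away. No other shift from 1 to 30 bases matched all 5. Whether reads of the other repeat copy were placed here was not tested.

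Because of these sites, levels are given over all listed sites and also over the 55 sites listed in a MEF library with a reference share of at most 10% over both MEF libraries together. There were 14 such sites in *Atp6ap2*, 27 in *Lamp2* and 14 in *Atp6ap1*. They were chosen after seeing the data and from MEF values alone, so their MEF level is low by construction. Of the other sites, 10 were above 10% in MEF and 23 were not listed there. Member sites outside MEF included 21 listed in 1 reprogrammed library only, 21 of them in MidK2, with 80 to 94.6% reference.

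Over sites low in MEF, MEF1 had an *Atp6ap2* reference share of 4.61% (95% Wilson interval 2.86 to 7.36). MEF2 had 1.49% (0.786 to 2.81). In LowK it was 3.52%, 5.83% and 14.1% at days 35, 52 and 56. In MidK1 it was 9.20%, 18.8% and 34.0% at the same days. The gene thus had its highest share at the last day of both courses, and at each day MidK1 was above LowK.

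MidK2 did not follow that order. *Atp6ap2* stood at 7.65%, 13.9%, 18.0% and 16.1% at days 18, 22, 29 and 36. Between successive days, the step from day 18 to 22 had an adjusted p under 0.05 at the shared sites (7.65 to 14.4%, Fisher's exact test, p adjusted by Benjamini-Hochberg, adjusted p = 0.000772), and the steps from 22 to 29 and from 29 to 36 did not (adjusted p = 0.238 and 0.554). Over all 20 listed sites day 29 read 38.6%, and 13 of these sites were low in MEF.

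For *Lamp2* the share at sites low in MEF was 3.61% in MEF1 and 1.74% in MEF2. LowK gave 3.33%, 10.6% and 10.7%, and MidK1 gave 19.5%, 35.6% and 35.3%. MidK2 gave 6.67%, 18.2%, 19.5% and 15.5%. *Lamp2* differed from *Atp6ap2* in MidK1: it stood at its upper level by day 52 (day 56 minus day 52 was 0.13 points at shared sites low in MEF, with *Atp6ap2* at 14.9 points over the same step).

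*Atp6ap1* moved least in LowK and MidK1. At sites low in MEF it was 5.38% in MEF1, 3.67%, 5.24% and 6.36% in LowK and 6.54%, 4.58% and 7.25% in MidK1. The 95% Wilson interval of MEF1 was 4.17 to 6.90%, and the intervals of all 6 of these reprogrammed libraries overlapped it. In MidK2 the gene did change: from 1.31% in MEF2 it went to 7.33%, 16.0%, 13.5% and 2.51% at days 18, 22, 29 and 36. Day 36 was 1.21 points above MEF2 (95% interval 0.294 to 2.23, Fisher's exact test, adjusted p = 0.0374). The sites were chosen for a low MEF share, which favours such a difference. They also include 74304116, where reads with a deletion count as reference. Such reads were 12 of 232 in MEF2 and 7 of 123 at MidK2 day 36. *Atp6ap2* and *Lamp2* in the same library were at 16.1% and 15.5%.

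**Figure D1:**
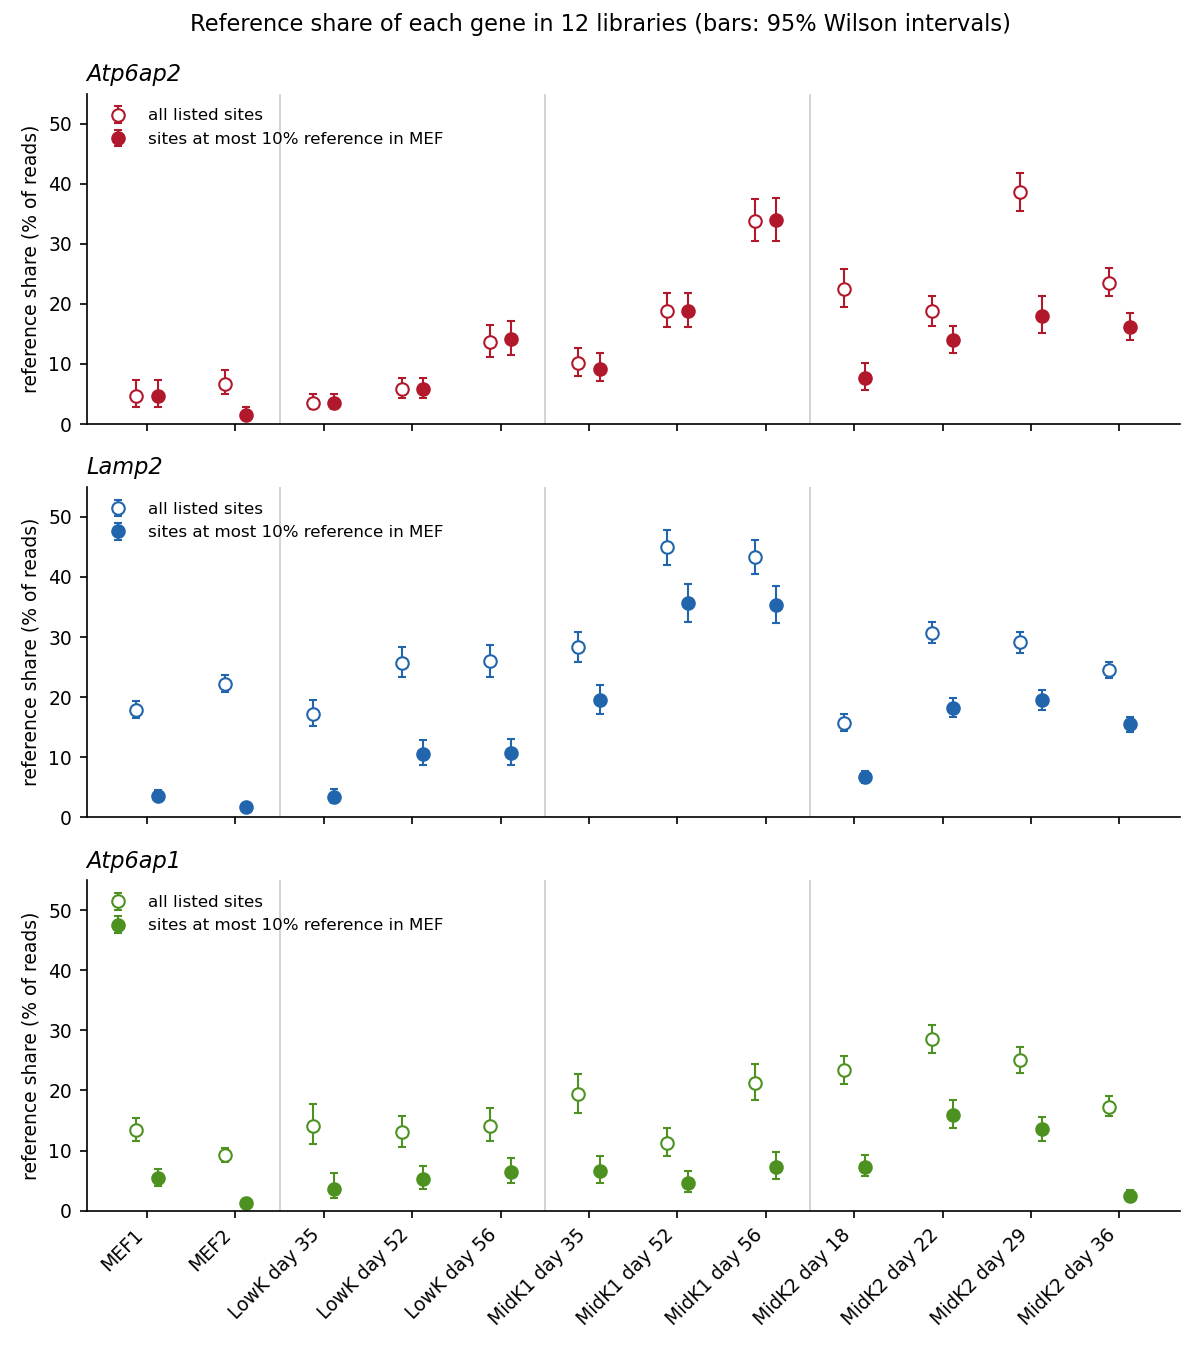
Reference share (% of reads, vertical axis) of Atp6ap2, Lamp2 and Atp6ap1 in each of the 12 libraries (horizontal axis), over all listed sites (open circles) and over sites with at most 10% reference in MEF (filled circles), with 95% Wilson intervals. In MidK1 at day 56 the filled circles stand at 34.0% for Atp6ap2, 35.3% for Lamp2 and 7.25% for Atp6ap1, and in MidK2 Atp6ap1 falls from 16.0% at day 22 to 2.51% at day 36.

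Against the MEF library of their set, genes were compared over all sites listed in both libraries. A gene was called when its adjusted p was under 0.05 and its share differed by 20 percentage points or more. In 3 of 30 comparisons a member was called higher, and in none was one called lower. At MidK1 day 52, 1 of 3 members was called, *Lamp2*, against 12.9% of the 155 genes tested. At MidK1 day 56, 2 of 3 were called, *Lamp2* and *Atp6ap2*, against 14.1% of 156 genes. At an adjusted p under 0.05 and any size, 2 members were higher at each of days 35, 52 and 56 of MidK1, beside 23.5%, 25.2% and 41% of genes. On these days 0 members were lower, beside 5.23%, 3.87% and 1.28% of genes.

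For *Lamp2* the shared-site share was 16.1% in MEF1 and 44.9% at MidK1 day 52, a difference of 28.8 points (95% interval 25.5 to 32.1, Fisher's exact test, Benjamini-Hochberg adjusted over the genes of the pair, adjusted p = 1.86e-69). At day 56 it was 43.4%, a difference of 27.2 points (24.1 to 30.4, Fisher's exact test, adjusted p = 3.66e-65). *Atp6ap2* went from 4.61% to 35.3% at day 56, a difference of 30.7 points (26.1 to 35.0, Fisher's exact test, adjusted p = 1.03e-29). At day 52 *Atp6ap2* was 14.7 points above MEF1 (10.8 to 18.4, Fisher's exact test, adjusted p = 1.4e-10), under the size limit. The difference of *Atp6ap1* was -0.79 points at day 52 (-3.78 to 2.36) and 4.43 at day 56 (0.55 to 8.37, Fisher's exact test, adjusted p = 0.0615).

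In LowK 0 of 3 members were called at days 35, 52 and 56, where 1.23%, 1.76% and 4.91% of genes were called higher by Fisher's exact test. At an adjusted p under 0.05 and any size, 0, 1 and 2 members were higher, against 4.91%, 10.6% and 22.1% of genes. At MidK1 day 35, 0 of 3 members were called against 8.5% of 153 genes. *Lamp2* was 10.2 points above MEF1 there (7.31 to 13.1, Fisher's exact test, adjusted p = 1.4e-11), with 16.0 points at shared sites low in MEF.

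In MidK2 0 of 3 members were called against MEF2 at days 18, 22, 29 and 36, where 1.59%, 9.63%, 9.94% and 10.4% of genes were. At an adjusted p under 0.05 and any size, 2, 3, 3 and 2 members were higher, beside 28%, 67.4%, 54.1% and 22.9% of genes. All 3 members were thus higher at day 22 in a library in which most genes were.

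*Lamp2* at MidK2 day 18 is a case where the choice of sites turned the direction. Over all shared sites it fell by 9.12 points from MEF2 (22.0 to 12.9%, Fisher's exact test, adjusted p = 1.12e-17). Over shared sites low in MEF it rose by 4.87 points (1.80 to 6.67%, Fisher's exact test, adjusted p = 2.09e-15), where the choice of sites by MEF share favours a rise. The first comparison rests on 29 sites and the second on 24, and the other 5 are the repeat sites of exon 5. Those sites read 59.2 to 86.8% in MEF2 with 159 to 185 reads each, and 41.0 to 76.3% at MidK2 day 18 with 39 to 62 reads each.

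Single sites gave the same picture in finer steps. Over the 10 reprogrammed libraries 92 of 523 site comparisons of the members were called higher, beside 9.52% of 11089 over all sites. In LowK 0 of 47, 0 of 55 and 2 of 48 member sites were called at days 35, 52 and 56, beside 0.822%, 0.357% and 3.63% of all sites. At MidK1 day 35, 6 of 49 were, beside 11% of all sites. *Lamp2* had 22 of 27 sites called at MidK1 day 52, against 16.3% of all 978 sites tested in that pair. At day 56 it had 24 of 26 and *Atp6ap2* 8 of 10, against 20.5% of 947 sites. *Atp6ap1* had 0 of 14 and 0 of 12 on these days. At MidK2 days 18 and 29, 0 of 54 and 14 of 57 member sites were called, beside 2.37% and 16.6% of all sites. At MidK2 day 22, 12 of 56 member sites were called, beside 12.5% of 1341 sites, and *Atp6ap1* had 4 of its 14. At day 36, 3 of 58 were called, beside 11.4% of 1354 sites, and *Atp6ap1* had 0 of its 16. Sites of a gene share reads and are not independent.

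The *Atp6ap2* sites were not alike at MidK1 day 56. The coding pair at 12608915 and 12608943 both stood at 28.6%, while 12616188 in the 3' UTR stood at 70.6% of 34 reads and 12616298 at 53.7% of 54. The 4 sites within 76 bases, a read length, of a listed insertion, deletion or multi-base change read 46.7% together, and the 8 further away 28.5%. In MEF1 the same classes read 3.03% and 5.24%. Whether reads with such changes are lost in alignment was not tested.

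**Figure D2:**
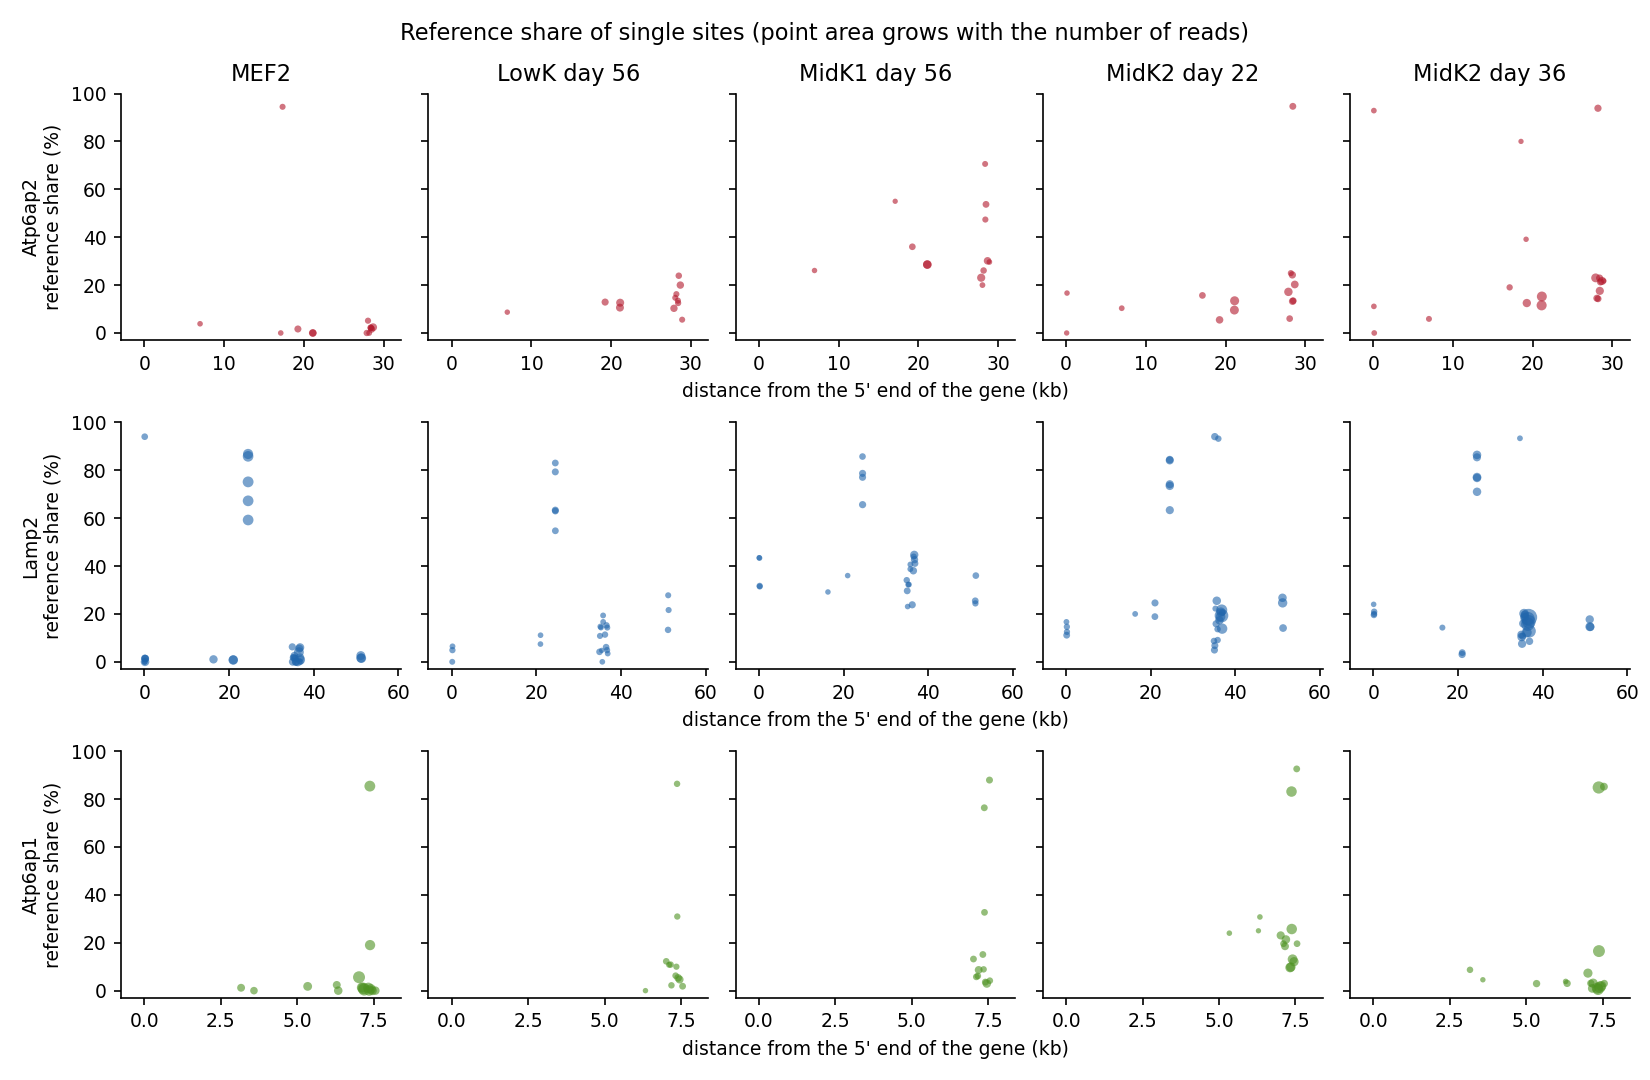
Reference share (%, vertical axis) of each listed site against its distance from the 5' end of the gene (kb, horizontal axis) in 5 libraries, with point area growing with the number of reads. The repeat sites of Lamp2 and the Atp6ap1 site 74304470 stay high in every library shown. The remaining Lamp2 sites of MidK1 day 56 lie between 23.1 and 44.7%.

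*Lamp2* has alternative last exons, and its sites fall in the exons shared by its transcripts, in the last exon of Lamp2-201 and in that of Lamp2-202. At sites low in MEF of MidK1 day 56 the last exon of Lamp2-201 read 28.9% and all other sites 36.5% (Fisher's exact test, Benjamini-Hochberg adjusted over 12 libraries, adjusted p = 0.18). At MidK2 day 18 the order was the other way, 12.3% of 465 reads against 5.13% of 1695 (difference 7.13 points, Fisher's exact test, adjusted p = 3.77e-06). LowK day 56 had the same order (20.3 against 8.94%, Fisher's exact test, adjusted p = 0.00348) and LowK day 52 the opposite one (1.18 against 11.7%, Fisher's exact test, adjusted p = 0.00463). In the other 9 libraries the adjusted p was above 0.05.

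The depth along the last exon of Lamp2-202 also varied between libraries. The median coverage of its distal sites over that of its proximal sites was 1 in MEF1 and 1.51 in MEF2, 1.10 to 2.29 in LowK and MidK1 and 3 to 6.28 in MidK2. In reprogrammed libraries 7 of 10 ratios were above both MEF ratios (mean 2.75 against 1.26, exact permutation test, two-sided, p = 0.258). At MidK2 day 18, where the ratio was highest, the proximal block read 2.03% reference and the distal block 6.27%.

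With libraries as units, the difference between reprogrammed and MEF libraries did not pass the test for any of the 3 genes. Mean reference share over all listed sites was 18.9% ± 11.3 (SD, n = 10) against 5.66% ± 1.49 (n = 2) for *Atp6ap2* (lowest 3.52, median 18.8, highest 38.6 in reprogrammed libraries). It was 28.6% ± 9.52 against 20.1% ± 3.11 for *Lamp2* and 18.7% ± 5.75 against 11.3% ± 2.94 for *Atp6ap1*. Each gene was above the higher MEF value in 8 of 10 libraries. These means include the 21 sites listed in 1 MidK2 library only, at 80 to 94.6% reference. In MidK2 *Atp6ap2* read 22.4%, 18.7%, 38.6% and 23.5% over all listed sites at days 18, 22, 29 and 36. At sites low in MEF it read 7.65%, 13.9%, 18.0% and 16.1%. The exact permutation test, two-sided, gave p = 0.182, 0.273 and 0.121, each with an adjusted p of 0.273 over the 3 genes, and the smallest p this design allows is 0.0152. At sites low in MEF 9 of 10 libraries for *Atp6ap2*, 9 for *Lamp2* and 6 for *Atp6ap1* were above both MEF libraries (exact permutation test, adjusted p = 0.182, 0.182 and 0.273). Those sites were chosen by their low MEF values, so this comparison leans toward higher reprogrammed values by construction. It cannot serve as support for a rise.

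MidK1 and LowK were sampled on the same days, and by the labels MidK1 received Shield1 and LowK did not. Both belong to the set of MEF1. At shared sites 0, 1 and 0 of 3 members were called at days 35, 52 and 56, where 7.23%, 8.61% and 8.64% of genes were called higher. The call was *Lamp2* at day 52, with 23.7% in LowK and 45.5% in MidK1 (difference 21.8 points, 95% interval 17.8 to 25.7, Fisher's exact test, adjusted p = 3.81e-25). The call did not hold under a coverage minimum of 50 (19.9 points) or over all listed sites (19.2 points).

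At day 56 *Atp6ap2* and *Lamp2* came close to the size limit. *Atp6ap2* was 13.6% in LowK and 33.2% in MidK1 (19.6 points, 15.1 to 24), and *Lamp2* was 23.9% and 43.7% (19.8 points, 15.8 to 23.7). *Lamp2* at day 56 was called at sites low in MEF, with 11.1% against 35.3% (24.2 points, Fisher's exact test, adjusted p = 7.31e-30), where 8.63% of 197 genes were called. *Atp6ap1* differed by -0.38, 1.05 and 0.53 points at days 35, 52 and 56.

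As means over the 3 days at shared sites, MidK1 was above LowK by 12.7 points for *Atp6ap2* (20.4% ± 12.1 against 7.74% ± 5.18, SD, n = 3 days, exact permutation test p = 0.2). The difference was 18.0 points for *Lamp2* (39.6% ± 8.69 against 21.6% ± 3.76, exact permutation test p = 0.1). It was 0.40 points for *Atp6ap1* (13.4% ± 2.02 against 13.0% ± 2.47, exact permutation test p = 0.7). With 3 days against 3 the smallest two-sided p is 0.1. *Lamp2* and *Atp6ap2* were higher in MidK1 on 3 of 3 days and *Atp6ap1* on 2 of 3.

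The distant pump accessory genes were then set against each other within each library, at sites low in MEF. *Atp6ap2* minus *Atp6ap1* was -0.77 points in MEF1 (95% interval -3.09 to 2.23). It was 0.18 points in MEF2 (-0.74 to 1.56). In MidK1 the difference was 2.67 points at day 35 (-0.71 to 5.93). At day 52 it was 14.2 points (11 to 17.5). At day 56 it was 26.7 points (22.4 to 30.9), with an adjusted p of 2.68e-30 by Fisher's exact test over 36 comparisons. Over these days *Atp6ap2* went from 9.20 to 34.0% and *Atp6ap1* stayed between 4.58 and 7.25%. Over all listed sites, with the *Atp6ap1* sites 74304470 and 74304477 included, the difference was -9.25, 7.63 and 12.6 points at days 35, 52 and 56.

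In LowK the accessory genes parted at day 56, with 7.73 points (4.15 to 11.3, Fisher's exact test, adjusted p = 9.41e-05), after -0.14 and 0.59 points at days 35 and 52. This rests on the sites low in MEF: over all listed sites *Atp6ap2* was not above *Atp6ap1* in LowK, with -10.6, -7.19 and -0.49 points at days 35, 52 and 56. In MidK2 they were together at days 18 and 22, with differences of 0.32 (-2.39 to 3.27) and -2.03 points (-5.25 to 1.23). They were 4.44 points apart at day 29 (0.87 to 8.22, Fisher's exact test, adjusted p = 0.0362) and 13.6 at day 36 (11.3 to 16.0, Fisher's exact test, adjusted p = 1.66e-34). From day 29 to 36 *Atp6ap1* fell from 13.5% to 2.51% (Fisher's exact test, adjusted p = 1.16e-25), with *Atp6ap2* at 18.0% and 16.1%. *Lamp2* fell by 4.07 points in the same step (Fisher's exact test, adjusted p = 0.000339). Falls were common there, with 46.8% of 218 genes lower at an adjusted p under 0.05 at sites low in MEF and 36.2% of 290 over all shared sites, where *Atp6ap1* was the member that fell. Over all listed sites the differences between the accessory genes were -0.98, -9.79, 13.6 and 6.20 points at days 18, 22, 29 and 36. Those values include the sites listed in 1 MidK2 library only.

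**Figure D3:**
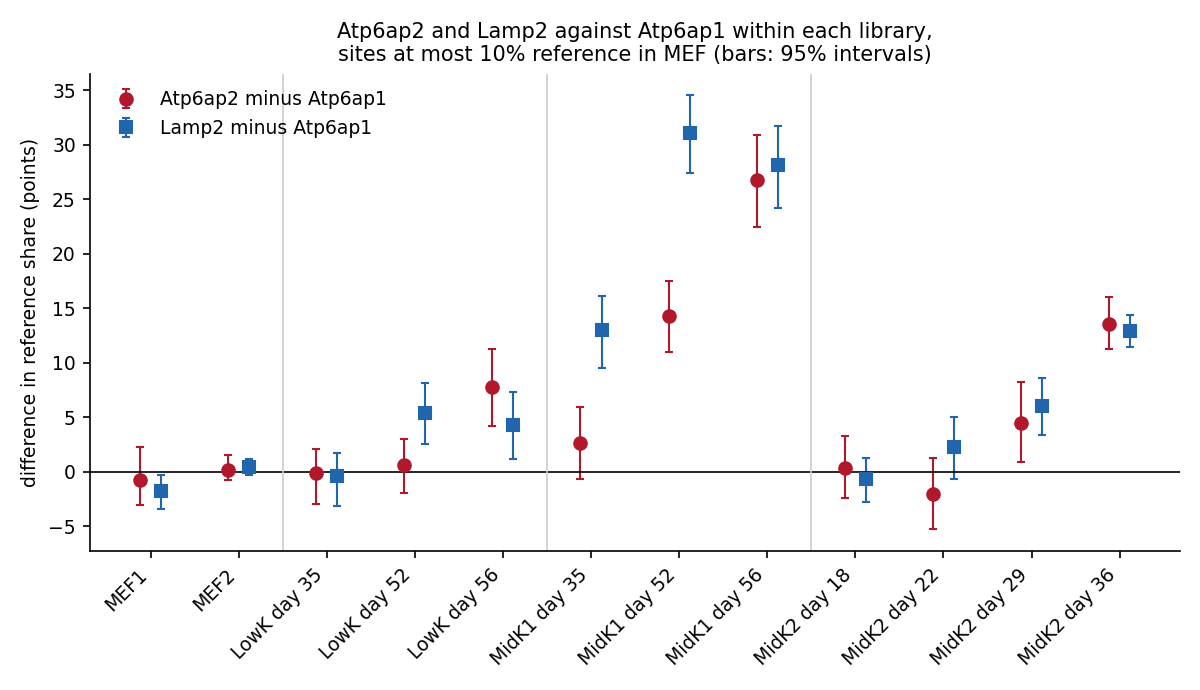
Difference in reference share (points, vertical axis) of Atp6ap2 minus Atp6ap1 (circles) and Lamp2 minus Atp6ap1 (squares) within each library (horizontal axis) at sites with at most 10% reference in MEF, with 95% intervals. The circles rise to 26.7 points at MidK1 day 56 and to 13.6 points at MidK2 day 36, and lie at -2.03 points at MidK2 day 22.

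Over all 10 reprogrammed libraries the change of *Atp6ap2* from MEF exceeded that of *Atp6ap1* by 5.70 points ± 9.50 (SD) at all shared sites, with 7 of 10 libraries higher (exact sign-flip permutation test, two-sided, p = 0.0859, adjusted p = 0.258 over 3 gene pairs). At sites low in MEF the excess was 7.57 points ± 9.49, with 9 of 10 higher (exact sign-flip permutation test, adjusted p = 0.0176). *Lamp2* minus *Atp6ap1* was 2.75 points over all shared sites (5 of 10 higher, exact sign-flip permutation test, adjusted p = 0.58) and 11.1 points at sites low in MEF (9 of 10, adjusted p = 0.0117 by the same exact test). *Lamp2* minus *Atp6ap2* was -2.95 and 3.51 points (exact sign-flip permutation test, adjusted p = 0.507 and 0.104). The days of a course share a control library and may share a culture, so the libraries are not independent.

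Between courses near the same day, MidK2 day 36 and MidK1 day 35 were compared at shared sites, where 1.22% of 246 genes were called higher, 1.22% lower and 0 of 3 members in either direction. *Atp6ap2* was higher in MidK2 (10.1 to 17.0%, Fisher's exact test, adjusted p = 0.000717) and *Lamp2* lower (28.3 to 23.9%, Fisher's exact test, adjusted p = 0.00835). At an adjusted p under 0.05 and any size, 6.1% of genes were higher and 30.5% lower in this pair. At sites low in MEF *Atp6ap1* was 6.54% in MidK1 and 2.17% in MidK2. The days and the table limits differ between these libraries.

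Likeness in level was the mean absolute difference over the 12 libraries. Genes like *Atp6ap1* at sites low in MEF included *Wbp5* (1.63 points) and *Irak1* (1.75 points), with a median of 3.89 over 108 genes. Over all listed sites the closest gene was *Magt1* (4.86 points, median over 114 genes 11.6), so the order depends on the sites used.

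Genes beside the members were chosen by the distance between median site positions, within 500 kb and with at least 2 sites in at least 10 libraries. *1810030O07Rik*, an uncharacterised gene 39.8 kb from *Atp6ap2*, was called higher than MEF in 9 of 10 libraries, with LowK day 35 the exception. It stood at 4.29% in MEF1 and 67.0% at MidK1 day 56 over 3 shared sites, and at 1.37% in MEF2 and 54.0% at MidK2 day 22. *Cul4b*, a ubiquitin ligase scaffold gene 118 kb from *Lamp2*, stayed low, with 3.50% in MEF1 and 7.81% at MidK1 day 56. In level over the 12 libraries the genes most like *Atp6ap2* at sites low in MEF were *Otud5*, *Timm17b* and *Sat1* (mean absolute differences 2.86, 2.94 and 3.38 points, median over genes 8.46). Those most like *Lamp2* were *Usp9x*, *Uba1* and *Atp6ap2* (2.65, 3.69 and 3.80 points). Over all listed sites they were *Usp9x*, *Tspyl2* and *Zrsr2* for *Atp6ap2* and *Nono*, *Hdac6* and *Timp1* for *Lamp2*.

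Of 15 other X-linked genes of the pump, lysosome, vesicle traffic and lysosomal gene control, 13 had a site in at least 1 library and 6 to 9 could be tested against MEF. The list held *Vma21*, which assembles the pump, the lysosomal enzymes *Gla* and *Ids*, ion transporters such as *Clcn5*, *Slc9a7* and *Atp7a*, genes of vesicle traffic and autophagy, and *Tfe3*, a transcription factor that switches on lysosomal genes. None was called in LowK or at MidK2 days 18 and 22. In MidK1 the called genes were 1 of 7, 2 of 6 and 2 of 6 at days 35, 52 and 56, beside 8.5%, 12.9% and 14.1% of all genes. At MidK2 days 29 and 36 they were 2 of 8 and 1 of 9, beside 9.94% and 10.4%. The list's median difference in MidK1 was 1.29, 9.84 and 9.07 points beside 0.99, 0.62 and 3.88 over all genes. In LowK it was -0.65, 0.08 and 3.57 points beside -0.88, -0.53 and 1.60. In MidK2 it was 3.57, 12.7, 6.10 and 0.59 points beside 1.77, 7.95, 6.24 and 0.61, so at days 29 and 36 the list's median was not above that of all genes.

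*Tfe3* was called on each of these MidK1 days, with 2.53% in MEF1 and 43.7% at MidK1 day 35 (Fisher's exact test, adjusted p = 5.82e-90) and 53.3% at day 56. It was also called at MidK2 days 29 and 36 (23.4% and 33.6%, with 3.39% in MEF2), the first not at sites low in MEF, where it differed by 19.9 points. *Chm*, a Rab escort protein gene, was called at day 52 on 1 site (0 to 25.7%, Fisher's exact test, adjusted p = 0.0322). *Clcn5*, an endosomal chloride and proton exchanger, was called at MidK1 day 56 (1.89 to 23.7%) and at MidK2 day 29 (2.09 to 27.8%). It fell from 27.3% at MidK2 day 29 to 3.36% at day 36 (Fisher's exact test, adjusted p = 6.56e-08) and was the gene of the list called lower, in the step in which *Atp6ap1* fell by 9.55 points (1.03% of 290 genes were called lower). *Vma21* and *Rab9* (10 libraries) and *Ids* (6) were tested against MEF and not called. *Gla* could not be tested against MEF.

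A second readout of the same genes came from changes that the single-base rule leaves out. The reads without a listed insertion, deletion or multi-base change of *Atp6ap2* were 3 of 26 in MEF1 and 9 of 148 in MEF2 (11.5 and 6.08%). They were 7.19%, 15.7% and 25.9% in LowK, 15.2%, 40.7% and 68.3% in MidK1 and 18.4%, 27.7%, 18.5% and 29.0% in MidK2. The sets of changes differ: MEF1 listed 1 change and the other libraries 5, of which the 4 not in MEF1 lie within 10 bases and share reads. At the change MEF1 listed, the share was 8.62%, 12.5% and 32.5% in LowK and 22.0%, 33.3% and 61.0% in MidK1. *Lamp2*, with 5 changes used (4 at LowK day 52), gave 9.25% and 8.96% in MEF, 9.88%, 15.8% and 13.6% in LowK, 27.1%, 36.7% and 47.0% in MidK1 and 8.19%, 21.5%, 24.2% and 22.1% in MidK2. In this readout both genes were highest in MidK1 at day 56. *Atp6ap1*, with 2 changes used, was 21.1 and 35.9% in MEF and 23.9 to 47.9% in reprogrammed libraries.

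**Figure D4:**
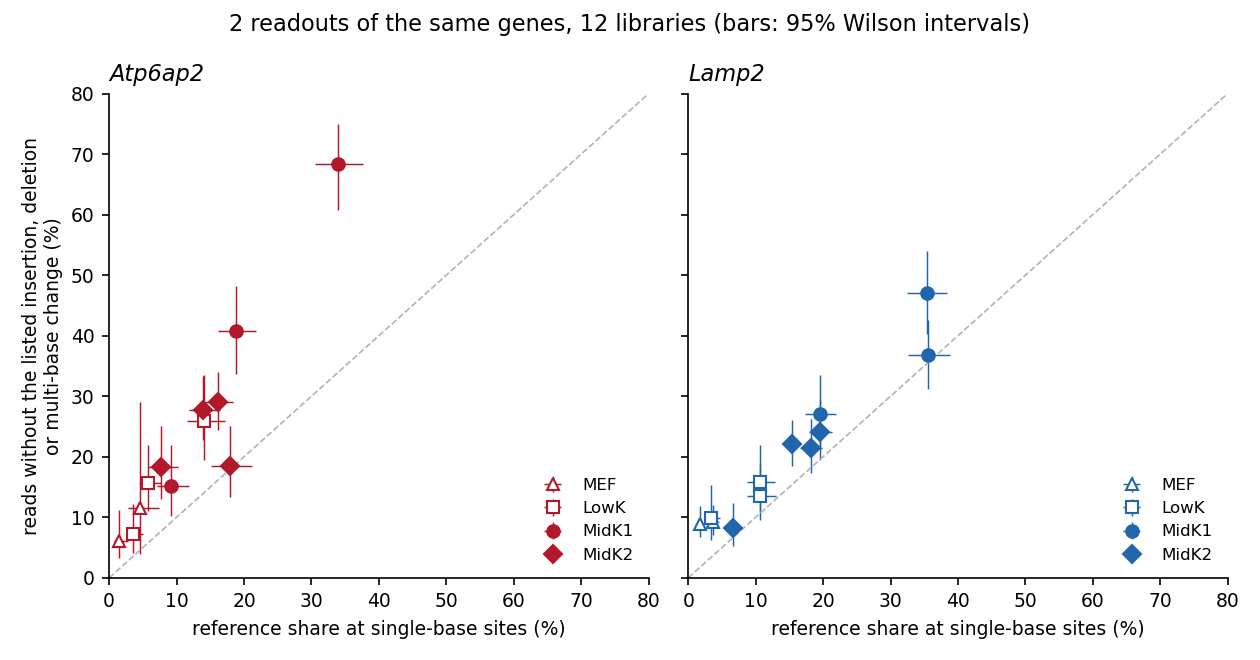
Reads without the listed insertion, deletion or multi-base change (%, vertical axis) against the reference share at single-base sites low in MEF (%, horizontal axis) for Atp6ap2 and Lamp2 in 12 libraries, with 95% Wilson intervals and a dashed line of equality. MidK1 day 56 is the top point in both genes, at 68.3% against 34.0% for Atp6ap2 and 47.0% against 35.3% for Lamp2.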

How the data were processed

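Per the labels' protocols, poly(A) RNA-seq libraries were sequenced with 2 x 76-base reads, and variants were called by CLC Genomics Workbench (Basic Variant Call) on build mm10. No source used here gives the aligner or the caller's settings. Per the file headers, the deposited tables give read counts (variant and coverage), the variant percent and an average quality score per variant. A position with reference reads only is not listed. Sites naming several genes were given to the gene with an exon there (GENCODE M21). Reads were summed per gene, and 2 libraries were compared at shared sites by a two-sided Fisher's exact test, Benjamini-Hochberg adjusted over every gene tested in the pair. Exact permutation and sign-flip tests used libraries as units (Python 3.11.15, pandas 2.3.3, scipy 1.17.1). Intervals and Fisher tests cover counting error only, and PCR copies or reads over several sites are not independent. Permutation p-values measure the spread between libraries, which may be technical.

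Members, lists and rules were chosen with earlier results of these data known. Named genes were the members, the lysosome list, up to 3 neighbours and the 3 genes most alike in level. The sites whose sequences are shown came from those with the highest summed coverage per gene, and not all of these are shown. Site 74304505 of *Atp6ap1* (1252 reads, 1.69% reference in MEF) was left out, and 74304552 (1232 reads) was shown. The *Atp6ap2* sites 12616188 and 12616298 were chosen after their values were seen. The gene test was tested on simulated data. Alternatives covered coverage, site choice, control library, size limit and base quality. The quality limit could act only in the 7 tables that give a score. Sites low in MEF, sites far from insertions and deletions, and taking out other listed alleles were added after seeing the data.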

Additional observations from a re-analysis of the deposited data

Results flagged for a closer look

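*Atp6ap2* at MidK1 day 56 stood apart from the other reprogrammed libraries at sites low in MEF, with 34.0% against a next value of 18.8%. It was 1 of 24 gap ratios past the limit. With so many ratios, 1 past the limit can arise by chance. The ratios reuse the same libraries in overlapping groups and site sets, so they are not independent. *Lamp2* differed between MidK1 and LowK at day 52 by 21.8 points.

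Insertions, deletions and multi-base changes lie outside the single-base comparisons. For *Lamp2*, reads without them exceeded the MEF library of the set by 7.59 points at LowK day 52. In MidK1 the excess was 17.9, 27.5 and 37.8 points at days 35, 52 and 56. In MidK2 it was 10.4, 15.2 and 13.5 points at days 22, 29 and 36. These 3 values differ in measure, with 6 changes at days 22 and 36 (16.8% in MEF2) and 5 at day 29 (8.96%). The additional change is a deletion at 38421119, inside another listed deletion at 38421117 to 38421119. For *Atp6ap2* the excess was 49.4 points at MidK1 day 56, on the 1 change that MEF1 also listed. In MidK2 it was 12.3, 21.6, 12.4 and 22.9 points at days 18, 22, 29 and 36. *Atp6ap1* showed 11.2 points at MidK2 day 29 (45.5 to 56.7%). This used 3 changes listed in both libraries, among them the deletions at 74304470 and 74304477. Reads without the deletion at 74304470 include reads with the variant base, so the excess is not a gain in reference share.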

How the results depend on the processing

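The count of members called higher than MEF, 3, became 6 with sites at least 200 bases apart and 11 with a size limit of 10 points. The count against LowK, 1, became 3 with a coverage minimum of 10, 0 with 50, 3 at the single best covered site, 2 with sites 200 bases apart, 5 with a limit of 10 points, 2 at sites low in MEF and 2 far from insertions and deletions. The difference of changes between *Atp6ap2* and *Atp6ap1* became 10.9 points at the single site (exact sign-flip permutation test, adjusted p = 0.0029) and 7.57 at sites low in MEF. *Lamp2* minus *Atp6ap1* became 16.7, 11.1 and, within the set of MEF2, -10.9 points. The last value is over all shared sites, and at sites low in MEF the same set gave 4.67 points (3 of 4 libraries higher). The single site was picked in each pair by coverage. In *Atp6ap1* the site with the most reads over the libraries was 74304470 (1304 reads, 85.3% reference in MEF). Reads with the deletion count as reference there. Single-site values that involve *Atp6ap1*, here and below, may rest on it and cannot be read as a change of allele. *Lamp2* minus *Atp6ap2* (-2.95) became 5.83 at the single site, 2.13 with sites 200 bases apart, 2.88 within the set of MEF1, 3.51 at sites low in MEF and 1.27 far from insertions and deletions. The mean *Atp6ap1* difference between MidK1 and LowK became -0.39 with a coverage minimum of 50.

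Against MEF, the sign changed as follows. At LowK day 35 *Atp6ap2* gave 2.13 with the other MEF library, *Lamp2* 3.25 at the single site, and *Atp6ap1* 0.65 with a coverage minimum of 10, 0.75 over all listed sites and 2.05 with the other MEF library. At LowK day 52 *Atp6ap2* gave -0.44 with sites 200 bases apart, and *Atp6ap1* 0.32 likewise, 0.57 with the other MEF library and 1.55 with other alleles taken out. *Atp6ap1* gave -0.40 and -0.77 at LowK day 56 and -2.08 and -1.99 at MidK1 day 56 (single site, then 200 bases apart), and 1.37 (other MEF library) and 1.48 (far from insertions and deletions) at MidK1 day 52. It gave -2.27 and -0.57 at the single site on MidK2 days 22 and 36. *Lamp2* gave 7.001 (single site) and 4.87 (low in MEF) at MidK2 day 18, and with a coverage minimum of 50 gave -7.68 and -0.52 on days 29 and 36. The cause was not tested.

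Against LowK, *Atp6ap1* at day 35 gave 3.82 (coverage minimum 50), 2.04 (single site), 2.27 (200 bases apart), 5.23 (all listed sites), 2.81 (low in MEF), 1.54 (other alleles taken out) and 0.92 (far from insertions and deletions). At day 52 it gave -3.21 (coverage minimum 50), -1.91 (200 bases apart), -1.82 (all listed sites), -0.51 (low in MEF) and -0.40 (other alleles taken out). At day 56 it gave -1.78 (coverage minimum 50), -1.68 (single site) and -0.67 (far from insertions and deletions). With the days paired (replicate block by matched day) the differences were the same 12.7, 18.0 and 0.40 points (exact sign-flip test, p = 0.25, 0.25 and 0.5), and the smallest p it allows is 0.25. Without MEF replicate 1 or 2 the reprogrammed minus MEF means ranged from 12.2 to 14.3 points for *Atp6ap2*, 6.29 to 10.7 for *Lamp2* and 5.35 to 9.51 for *Atp6ap1*. Coverage limits single sites, with a median of 41 to 89.5 reads per member site.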
